A study of Mus musculus with 8 samples.

Results

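The core hepatocyte transcription factors described here are 9 genes, namely Hnf4a, Foxa1, Foxa2, Foxa3, Cebpa, Cebpb, Onecut1, Onecut2 and Prox1, out of 19938 genes with a value on the array. Each gene was taken from the probe that carried its symbol alone, and each of the 9 had 1 such probe. Tumor, labelled hepatocellular carcinoma, was compared with the adjacent normal liver of the same mouse in 4 animals. The animals, M24, M48, M50 and M60, were C57BL/6J males. All 4 mice had received an AAV vector (adeno-associated virus, a gene delivery vehicle) at 2 to 3 months of age and were kept on a normal diet for 18 months, so the adjacent liver too came from injected, aged animals. The labels used here do not say what the vector carried, and mice without a vector were not analysed here. Values are log2 expression values from 1 array per sample, and the number of arrays limits the precision.

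Hepatocyte identity is held by a small network of transcription factors that bind the promoters and enhancers of liver genes and of one another. The nuclear receptor HNF4A, the forkhead factors FOXA1, FOXA2 and FOXA3, the leucine zipper factors C/EBP alpha and C/EBP beta, the cut-homeodomain factors ONECUT1 (HNF6) and ONECUT2, and the homeodomain factor PROX1 are central to it. FOXA proteins open chromatin in the early endoderm, HNF4A and C/EBP alpha sustain metabolic genes in the adult cell, C/EBP beta is best known in the acute phase response and in regeneration, and PROX1 acts with HNF4A as a corepressor.

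In the tumors 6 of the 9 factors were lower and 1 was higher by limma at an adjusted p under 0.05, and 2 did not pass. Onecut2, Cebpa, Onecut1, Cebpb, Prox1 and Hnf4a fell, Foxa3 rose, and Foxa1 and Foxa2 did not pass. The falls spanned a log2 difference of -0.999 for Onecut2 to -0.35 for Hnf4a, and the rise of Foxa3 was 0.90. For scale, 15.7% of the 11963 tested genes fell by the same criterion, 16.3% rose, and 31.9% were called in either direction. The counts of the further gene lists below are to be read beside the same shares. All 9 factors lay above the filter on low values, so none was left untested. Their median difference was -0.41, against 0.0008 over all tested genes, and their median absolute difference was 0.51, against 0.22. The members and lists were chosen with earlier results of these data known, so these shares describe the 9 genes and test nothing beyond each gene.

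The promoter sequences of the factors with the firmest values and of Hnf4a are shown here, since factors of this network are known to bind one another's promoters. RefSeq windows from 250 bases before to 50 bases after each annotated start were taken from build GRCm38.p6, and 8 of the 9 factors had 12 windows between them. Onecut2 is named only. Hnf4a has 2 windows, 40.3 kb apart on chromosome 2, which lie at its known alternative promoters. The downstream promoter, P1, is the one known to be used in adult hepatocytes, and the upstream one, P2, is known from gut and pancreas. The array gives 1 value for the gene and does not separate transcripts of the 2 promoters. Both strands were searched. In the P2 window of Hnf4a capitals mark ATCAAT, the core that ONECUT factors bind, and the P1 window held none of the letters searched. In the Foxa3 and Cebpa windows they mark TATAAA, the core of a basal promoter element.
Hnf4a P2 window, chr2:163506607-163506906, plus strand: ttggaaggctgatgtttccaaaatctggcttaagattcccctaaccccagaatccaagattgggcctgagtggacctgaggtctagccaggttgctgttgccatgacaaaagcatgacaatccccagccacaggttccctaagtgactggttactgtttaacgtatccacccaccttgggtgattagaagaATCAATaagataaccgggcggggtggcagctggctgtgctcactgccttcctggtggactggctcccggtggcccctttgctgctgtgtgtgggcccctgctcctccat
Hnf4a P1 window, chr2:163546905-163547204, plus strand: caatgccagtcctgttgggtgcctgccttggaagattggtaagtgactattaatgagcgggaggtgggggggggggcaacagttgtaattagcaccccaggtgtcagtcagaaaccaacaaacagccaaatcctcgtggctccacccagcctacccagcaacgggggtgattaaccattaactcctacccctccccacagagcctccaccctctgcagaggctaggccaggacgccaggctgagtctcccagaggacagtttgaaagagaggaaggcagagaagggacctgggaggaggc
Foxa3 window, chr7:19023490-19023789, minus strand: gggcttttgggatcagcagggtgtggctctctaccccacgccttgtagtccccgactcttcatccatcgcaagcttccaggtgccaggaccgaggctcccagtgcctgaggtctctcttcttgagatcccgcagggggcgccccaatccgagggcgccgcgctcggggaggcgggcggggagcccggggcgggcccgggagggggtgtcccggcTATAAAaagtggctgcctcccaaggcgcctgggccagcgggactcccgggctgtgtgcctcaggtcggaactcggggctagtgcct
Cebpa window, chr7:35119043-35119342, plus strand: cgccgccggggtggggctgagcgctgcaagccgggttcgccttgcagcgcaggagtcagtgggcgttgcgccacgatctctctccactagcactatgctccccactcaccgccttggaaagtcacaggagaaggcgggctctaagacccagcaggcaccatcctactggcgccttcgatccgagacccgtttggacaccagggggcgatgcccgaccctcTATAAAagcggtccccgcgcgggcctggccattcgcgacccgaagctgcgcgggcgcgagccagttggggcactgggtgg

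The P2 window of Hnf4a held ATCAAT 59 bases before the start. The Foxa3 window held TATAAA 36 bases before its start and the Cebpa window 30 bases before. Among 32851 windows of the same length, ATCAAT was found in 7.54%, TATAAA in 13.6% and the FOXA core TGTTTAC in 3.65%. Among the 12 windows of the factors, the numbers were 2 with ATCAAT, 5 with TATAAA and 1 with TGTTTAC, the last in Foxa1. Of the other TATAAA matches, that of Cebpb lay after the annotated start, at base 272 of the window. That of Foxa2 lay 208 bases before its start and that of Prox1 34 bases before, both on the reverse strand. The number with TATAAA is thus a count of letters, not of basal promoter elements. None of the motifs overlapped another in these windows. A match describes letters in a window and no binding was measured.

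Hnf4a, the nuclear receptor at the centre of the network, had log2 values of 10.89, 10.87, 10.86 and 11.06 in tumors of M24, M48, M50 and M60, against 11.10, 11.38, 11.29 and 11.30 in the adjacent liver of the same mice. The groups did not overlap, although the highest tumor value lay only just below the lowest adjacent value. The difference was -0.35 (SE 0.0877, 95% interval -0.56 to -0.14, adjusted p = 0.0253), or 1.27-fold lower in tumors. This is the smallest of the 6 falls, and the call was lost whenever any of the 4 mice was left out, with an adjusted p = 0.0529 without M24, 0.0731 without M48, 0.0777 without M50 and 0.0739 without M60.

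The Foxa family did not move as a block. Foxa3, a member expressed in adult liver and gut, had values of 8.56, 8.47, 8.75 and 8.79 in the tumors of M24, M48, M50 and M60, against 7.66, 7.88, 7.58 and 7.85 in their adjacent liver. Every tumor value was above every adjacent value. Foxa3 was 1.87-fold higher in tumors, a difference of 0.90 (SE 0.109, 95% interval 0.64 to 1.16, adjusted p = 0.00200). Its difference was smallest in M48, at 0.59, and largest in M50, at 1.17. The rise was called under all 11 alternative settings, with an adjusted p from 0.000479 to 0.0135.

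Foxa2, which with Foxa1 is needed for the liver to form, stood at 6.92, 6.37, 6.91 and 6.98 in tumors of M24, M48, M50 and M60 and at 6.96, 6.49, 6.998 and 7.28 in adjacent liver. The tumor was the lower tissue in all 4 mice, yet the mice differed more from each other than the tissues did, and M48 was lowest in both tissues. The difference of -0.14 did not pass (95% interval -0.35 to 0.08, adjusted p = 0.293). Foxa1 had tumor values of 6.89, 6.86, 6.53 and 7.03 and adjacent values of 7.03, 6.80, 7.39 and 7.32 in M24, M48, M50 and M60. The groups overlapped, and most of the mean difference of -0.31 came from M50, where it was -0.86, while M48 stood at 0.06. It did not pass (95% interval -0.68 to 0.06, adjusted p = 0.181), and without M50 it was -0.12 (adjusted p = 0.504). Neither interval shows that Foxa1 or Foxa2 was equal in the tissues, but both lie wholly below the interval of Foxa3.

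The difference in change between the paralogs was set out mouse by mouse. Foxa3 exceeded Foxa2 in its tumor minus adjacent difference by 1.04 ± 0.26 (SD, n = 4) and Foxa1 by 1.21 ± 0.62, with the same sign in 4 of 4 mice. An exact two-sided sign-flip permutation test gave p = 0.13 for each, which is the smallest value that 4 mice allow, and 0.167 after adjustment over the 4 paralog pairs compared. For Onecut2 minus Onecut1 the value was -0.45 ± 0.28, negative in 4 of 4 mice, again at the exact limit of p = 0.13. Cebpb minus Cebpa gave 0.06 ± 0.31, with mice on both sides of zero (exact p = 0.875).

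**Figure D1:**
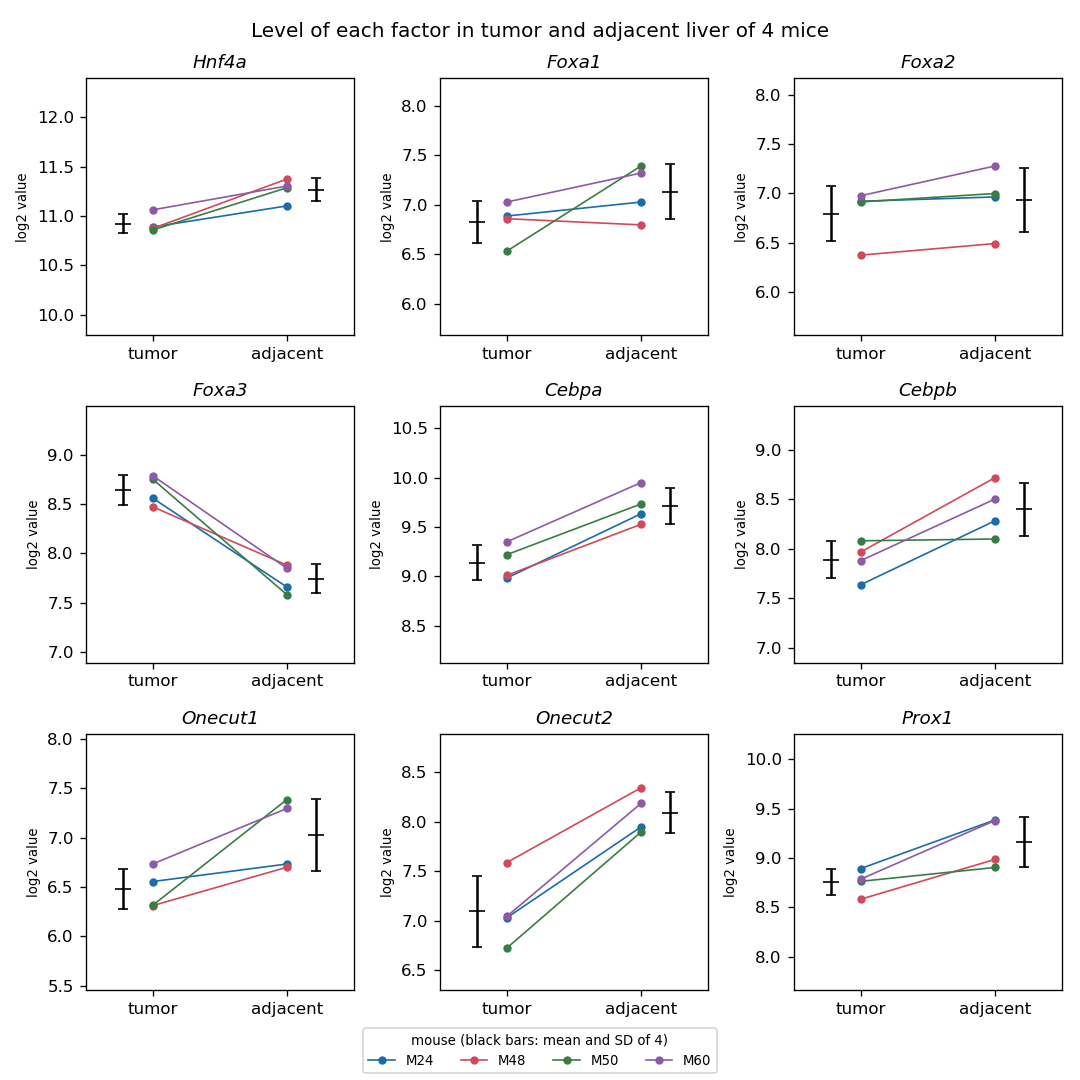
Log2 value of each of the 9 factors (vertical axes, each spanning the same log2 range) in the tumor, at the left of each panel, and the adjacent liver, at the right, of 4 mice joined by lines. Black bars give the mean and SD of 4 samples. Foxa3 is the panel whose lines descend to the right, from tumor values of 8.47 to 8.79 against adjacent values of 7.58 to 7.88.

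Cebpa, whose protein drives gluconeogenic and urea cycle genes and holds hepatocytes out of the cell cycle, showed the most uniform fall. Its values were 8.98, 9.01, 9.22 and 9.35 in tumors of M24, M48, M50 and M60, against 9.63, 9.53, 9.73 and 9.95 in adjacent liver. The groups did not overlap, and the 4 paired differences lay between -0.65 and -0.51. Their SD of 0.067 was smaller than that of 95.9% of tested genes. The fall of 0.57 (SE 0.0758, adjusted p = 0.00271), 1.48-fold, was called under all 11 alternative settings.

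Cebpb had tumor values of 7.64, 7.97, 8.08 and 7.88, against adjacent values of 8.28, 8.72, 8.10 and 8.50, in M24, M48, M50 and M60. The tumors lay below the adjacent samples by a narrow margin. The mean fall was 0.51 (SE 0.135, adjusted p = 0.0289), but the mice disagreed. M24, M48 and M60 gave differences of -0.65, -0.75 and -0.62, whereas M50 gave -0.02. Without M50 the fall was 0.67 (adjusted p = 0.00904), while leaving out M24 (adjusted p = 0.107), M48 (0.0820) or M60 (0.106) ended the call.

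Onecut2 fell furthest of the 9. It had values of 7.03, 7.59, 6.72 and 7.04 in tumors of M24, M48, M50 and M60, against 7.95, 8.34, 7.90 and 8.19 in adjacent liver. All tumor values lay below all adjacent values, and M48 was the highest in both tissues. The difference was -0.999 (SE 0.102, 95% interval -1.24 to -0.76, adjusted p = 0.00111), close to a 2.00-fold reduction. It was called under all 11 alternatives, with values from -1.08 to -0.94.

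Onecut1, the paralog whose protein regulates glucose and bile acid genes and bile duct formation, had tumor values of 6.55, 6.31, 6.31 and 6.73 and adjacent values of 6.73, 6.70, 7.39 and 7.29 in M24, M48, M50 and M60. The tumor of M60 and the adjacent liver of M24 had the same deposited value, as did Foxa1 in the same 2 samples. Equal values for a probe occurred in 1.86 to 2.77% of probes in each of the 28 pairs of arrays. The fall was 0.55 (SE 0.152, adjusted p = 0.0339), with paired differences from -1.07 in M50 to -0.18 in M24. The call was lost without M48 (adjusted p = 0.0534), without M50 (0.0836, with a difference of -0.38) and without M60 (0.102).

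Prox1, which marks hepatocytes and also lymphatic endothelium, had values of 8.89, 8.58, 8.76 and 8.79 in tumors of M24, M48, M50 and M60, against 9.38, 8.99, 8.90 and 9.38 in adjacent liver. The groups touched without overlapping, since the tumor of M24 and the adjacent liver of M50 were almost level. Prox1 fell by 0.41 (SE 0.0977, 95% interval -0.64 to -0.17, adjusted p = 0.0209). The difference was smallest in M50, at -0.14, and leaving out M24 (adjusted p = 0.0827) or M60 (0.0976) ended the call.

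**Figure D2:**
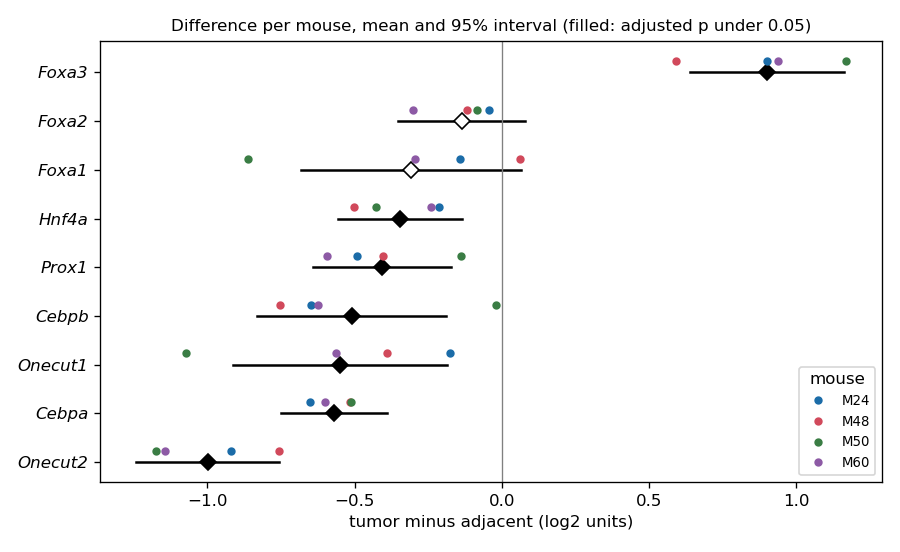
Tumor minus adjacent difference in log2 units (horizontal axis) for the 9 factors (rows), with coloured points for the 4 mice, a diamond for the mean and a line for the 95% interval of the limma fit; filled diamonds had an adjusted p under 0.05. The intervals of Foxa1 and Foxa2 cross 0, that of Foxa3 lies between 0.64 and 1.16, and M50 stands apart from the other mice for Foxa1, Onecut1 and Cebpb.

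Across the 9 factors, 8 had the same sign in all 4 mice, Foxa1 being the exception, against 50.6% of all tested genes. The groups did not overlap for 6 of the 9, against 30.5% of tested genes. By mouse, 8 factors were lower in the tumors of M24, M50 and M60, and 7 in that of M48. The median difference over the 9 was smallest in M24, at -0.21, followed by M48 at -0.40, M50 at -0.43 and M60 at -0.56, while the median of all tested genes stayed between -0.02 and 0.01. M50 had the largest falls of Onecut1, Onecut2 and Foxa1, the largest rise of Foxa3, and the smallest falls of Cebpb and Prox1. With 1 mouse left out, the number of factors called lower was 3 without M24, 3 without M48, 4 without M50 and 2 without M60. Foxa3, Cebpa and Onecut2 were called in each of these 4 fits, and without M60 they were the only ones. Because the samples are pieces of tissue, a smaller share of hepatocytes and less RNA of a factor per hepatocyte cannot be told apart.

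The labelled tissue was checked against defining hepatocyte genes. Of 9 tested hepatocyte markers, which included albumin (Alb), transthyretin (Ttr), fibrinogen beta (Fgb), hemopexin (Hpx) and alpha-1-microglobulin (Ambp), 0 fell and 1 rose, with a median difference of 0.003. By limma 0 of the 9 were lower at an unadjusted p under 0.05 as well. The marker that rose was apolipoprotein A-I (Apoa1), at 0.32, and its call was lost without M24, M48 or M60 and when arrays were centred on their medians. Alb averaged 13.91 ± 0.0599 in tumors and 13.80 ± 0.118 in adjacent liver (SD, n = 4 each; adjusted p = 0.443). The summed linear level of the markers was 88867 to 100190 in tumors and 89216 to 94857 in adjacent liver. These probes lie near the top of the measured range, whose highest value was 14.49, where differences can be compressed.

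Markers of other cells moved beside the factors. Of 7 tested bile duct and progenitor markers 5 rose and 0 fell, with a summed level of 488 to 960.0 in tumors and 268 to 362 in adjacent liver, and Cftr lay below the filter. In this list Prom1 (2.29, with overlapping groups), Cd24a (2.28) and Sox4 (1.47) rose, while Krt7 was at 0.30 (adjusted p = 0.401). Krt19 rose by 0.85, a call lost with no replicate block and without M24 or M60. Epcam, at 0.82, did not pass (adjusted p = 0.0504). Its adjacent mean of 4.57 lay below the filter value of 4.597, so it was tested only through its tumor values. Of 8 endothelial markers 4 rose, among them Pecam1 at 1.02, Kdr at 0.64 and Tek at 0.39. The call of Tek was lost in 6 of 11 alternatives. A list of lymphatic markers was read beside Prox1. Of 3 tested ones, the growth factor receptor Flt4 rose by 2.43 and Lyve1 by 1.49, while podoplanin (Pdpn) was at 0.19 (adjusted p = 0.670). Their summed level was 818 to 1152 in tumors and 208 to 270.2 in adjacent liver. Lyve1 is also among the 4 endothelial markers that rose, so these lists are not separate results. Whether the share of lymphatic endothelium changed was not tested. Prox1 itself was lower in tumors.

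Among the remaining cells, 3 of 8 stellate and fibroblast markers rose and 0 fell. Those that rose were Acta2 at 2.21, Col1a1 at 1.92 and Pdgfrb at 0.58, whose call was lost in 6 of 11 alternatives. The others did not pass and went both ways, with Lrat at -0.37, Dcn at -0.25, Des at -0.18, Lum at 0.25 and Reln at 0.23. Of 8 macrophage markers 2 rose (Cd14 and Cd68) and 2 fell (Marco and Clec4f), and with no replicate block 1 rose and 0 fell. The call of Cd68 was lost in 5 of 11 alternatives and that of Clec4f in 4. For the myeloid factors Cebpa and Cebpb, 3 of 7 granulocyte markers were above the filter, and of these Cebpe fell by 0.48 (adjusted p = 0.0474), while Mpo, Elane, Ly6g and Csf3r lay below the filter value of 4.597. Of 4 lymphocyte markers above the filter 0 passed, although 3 had an unadjusted p under 0.05 by limma. Of the 3, Cd3g had an adjacent mean of 4.56, below the filter value, and was tested only through its tumor values. Without M48, Nkg7 and Cd3g were called higher by limma, with an adjusted p = 0.0156 and 0.0259. Whether these cells contributed to the values of the 9 factors was not tested.

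Other hepatocyte transcription factors were read from the same fit to place the 9 beside their network. Of 20 tested related factors 8 fell and 3 rose, with a median of -0.20. Over all tested genes 15.7% fell and 16.3% rose. The nuclear receptors Nr1i3 (CAR, a drug sensor), Nr1h4 (FXR, the bile acid receptor) and Rxra (their common partner) fell, with differences of -1.77, -1.12 and -0.73. Tbx3, a T-box factor of pericentral hepatocytes (-1.93), the glucocorticoid-responsive Klf15 (-1.06) and the zinc finger protein Zbtb20, a repressor of alpha-fetoprotein (-0.80), fell too. Nr1i3 had values of 7.11, 7.56, 7.94 and 7.51 in tumors of M24, M48, M50 and M60, against 9.05, 9.49, 9.22 and 9.41 in adjacent liver, a larger difference than that of any of the 9 factors. Ppara (-0.29) and Cebpe (-0.48) also fell, with calls that were lost in several alternatives.

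Sox9, the factor of bile duct and progenitor cells, rose by 1.36 (SE 0.136, adjusted p = 0.00106). The stress factor Ddit3 (CHOP), which dimerises with C/EBP proteins and blocks their DNA binding, rose by 0.80. The endodermal factor Gata6 rose by 0.42, a call lost with no filter, with median centring and without M24, M50 or M60. The factors that did not pass included Nr5a2 (LRH-1) at -0.16, Gata4 at -0.22, Hhex at -0.11, Foxo1 at -0.19, Nr1i2 (PXR) at -0.22 (-0.38 without M48, adjusted p = 0.0367) and Onecut3 at -0.07. Nr0b2 (SHP), a corepressor induced by bile acids, had a mean difference of 0.09 that hid opposite values of 1.15 in M48 and -0.90 in M50. Cebpd and the intestinal paralog Hnf4g lay below the filter. Hnf4g stood at 3.26 to 3.80 in tumors and 2.78 to 3.11 in adjacent liver, and with no filter its difference of 0.68 had an adjusted p = 0.0151.

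**Figure D3:**
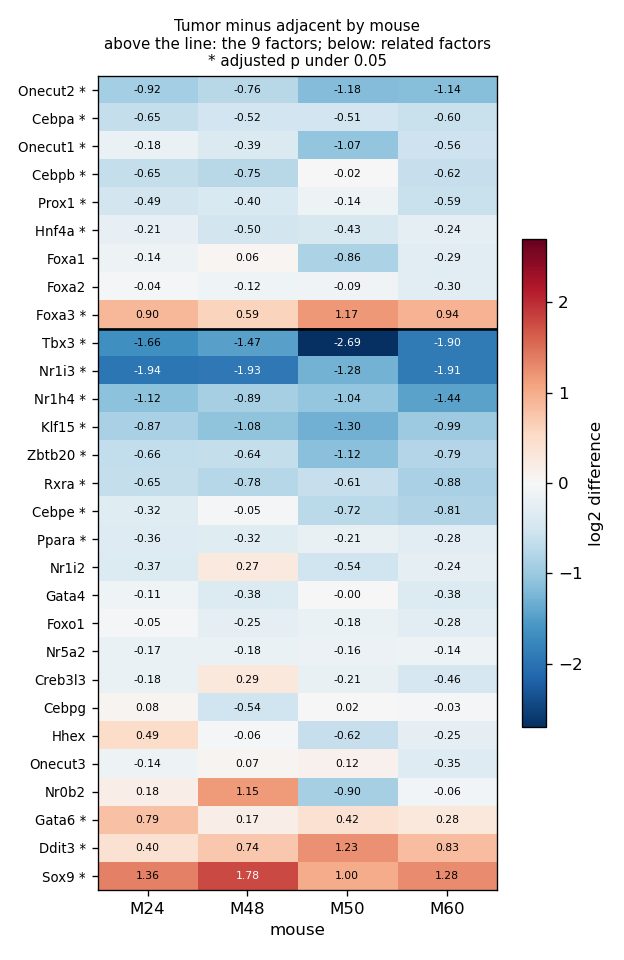
Tumor minus adjacent difference in log2 units, by mouse (columns), for the 9 factors above the line and 20 related factors below it (rows, ordered by mean difference); an asterisk marks an adjusted p under 0.05. Foxa3 is the 1 factor above the line with red cells in all 4 mice, and Nr1i3, Tbx3, Nr1h4 and Klf15 hold the deepest blue cells below it.

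RNA of genes whose proteins act on the factors was read too. Of 11 tested coregulators 3 rose and 1 fell, with a median of -0.07. For scale, 31.9% of all tested genes were called in either direction. Trib1, an adaptor that targets C/EBP alpha for degradation, rose by 0.58 (SE 0.122, adjusted p = 0.0128, and 0.0518 with no replicate block), and Trib2 by 0.36. The corepressor deacetylase Hdac3 rose by 0.45 and the coactivator Ncoa1 fell by 0.41. The calls of Trib2 and Ncoa1 were lost with no filter and without M48, M50 or M60. That of Trib2 was also lost with quantile normalization and with median centring. Cop1, the ligase that works with Trib1, stood at -0.19 and the coactivator Ppargc1a at -0.53, and neither passed.

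Textbook target genes of the factors were counted next. Of 23 tested genes known to need HNF4A or to carry its sites, 13 fell and 2 rose, with a median of -0.37. The bile acid enzymes Cyp7a1, Cyp8b1 and Cyp27a1 fell, at -3.17, -2.93 and -2.17, as did the glucose enzymes G6pc and Pck1, at -1.96 and -1.42. With no replicate block Cyp7a1 had an adjusted p = 0.0556. Apolipoprotein A-IV (Apoa4) rose by 2.30 (SE 0.160, adjusted p = 0.000347), with tumor values of 13.65, 13.57, 13.86 and 13.85 in M24, M48, M50 and M60 against 10.92, 11.02, 12.05 and 11.72 in adjacent liver. The lipoprotein genes Apob (-0.09), Apoc3 (0.06) and Mttp (0.09) did not pass, nor did Fabp1 (-0.08) and the clotting factor gene F12 (0.04). Without M60, 8 genes of this list were called lower.

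Among 12 metabolic targets of C/EBP alpha 7 fell and 1 rose, with a median of -0.80. Those that fell included Tat of tyrosine breakdown (-1.01), Tdo2 of tryptophan breakdown (-0.95), Cps1 of the urea cycle (-0.84) and Cdo1 of cysteine breakdown (-0.76), while glycogen synthase Gys2 stood at -0.10 (adjusted p = 0.558). The gene that rose was Igfbp1, which encodes an insulin-like growth factor binding protein, at 3.65 (SE 0.587, adjusted p = 0.00512). Its values were 12.43, 12.61, 12.92 and 13.28 in tumors of M24, M48, M50 and M60 against 8.81, 11.39, 8.02 and 8.40 in adjacent liver, so M48 had the highest adjacent level and the smallest difference, 1.21.

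Genes with FOXA sites went both ways. Of 12 tested, 5 fell and 3 rose, with a median of -0.25, against 15.7% lower and 16.3% higher over all tested genes. The 3 were Igfbp1, alpha-fetoprotein (Afp) and Apoa1. The values of Afp were 5.77 to 8.01 in tumors and 4.13 to 4.59 in adjacent liver, where all lay below the filter value of 4.597, so it was tested only through its tumor values, and without it 2 genes rose. The glucose transporter gene Slc2a2 did not pass at -0.41, with M48 at 1.87 and the other mice between -1.46 and -0.92, and without M48 it fell by 1.17 (adjusted p = 0.00247). Of 6 ONECUT targets 4 fell and 0 rose. Hnf4a and Foxa2 are themselves in these lists, and Pck1 and G6pc are in 4 of them, so the lists are not separate results. Over the 34 tested target genes in any of the 4 lists, leaving out the 9 factors, 17 fell, 4 rose (Afp among them) and 13 did not pass, with a median of -0.39.

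Acute phase genes regulated by C/EBP beta were mixed. Of 12 tested, 4 fell and 1 rose, with a median of -0.14. The serum amyloid genes Saa3, Saa2 and Saa1 fell, at -2.12, -1.83 and -1.71, as did the orosomucoid gene Orm2 at -1.55, whereas lipocalin 2 (Lcn2) rose by 2.58. Haptoglobin (Hp, 0.02), Hpx (0.00) and Fgb (-0.01) did not pass. Without M24 or M60, 2 genes of the list were called lower, and with no replicate block 1, when the adjusted p was 0.137 for Saa1, 0.212 for Saa2 and 0.351 for Orm2. Saa1 and Saa2 are close copies whose probes can share signal.

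**Figure D4:**
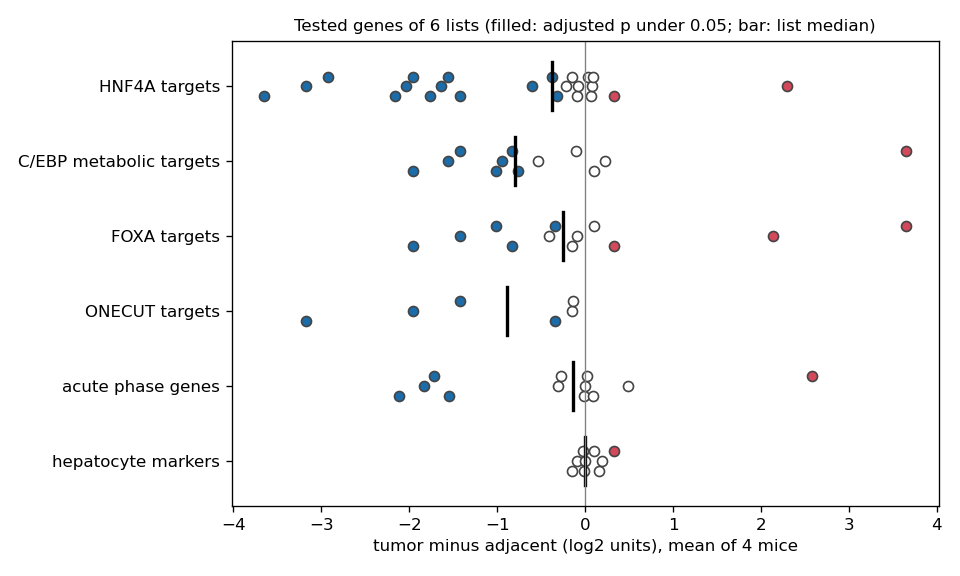
Tumor minus adjacent difference in log2 units, mean of 4 mice (horizontal axis), for each tested gene (points) of 6 lists (rows); filled points had an adjusted p under 0.05, blue for lower and red for higher, and black bars are list medians. The median lies at -0.37 for HNF4A targets, -0.80 for C/EBP metabolic targets and 0.003 for hepatocyte markers, and genes occur in more than 1 row.

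For each called factor the tested genes with the most similar profile were found, by the root mean square distance between values centred on each gene's mean over the 8 arrays. For Hnf4a these were Srcap (0.037), Nploc4 (0.051) and Sin3a (0.052), against a median distance of 0.270 over tested genes. For Foxa3 they were Tpra1 (0.101), Rasgrp3 (0.110) and Elk3 (0.111), for Cebpa Dtwd2 (0.065), Mrpl49 (0.089) and 2310039H08Rik (0.090), and for Cebpb Pim1 (0.093), Hipk3 (0.094) and Zpr1 (0.119). For Onecut2 they were Lrp1 (0.132), Tfr2 (0.135) and Xylb (0.148), for Onecut1 Gm15417 (0.101), Mrnip (0.104) and Clock (0.105), and for Prox1 Hoga1 (0.051), Zfand4 (0.090) and Dgat2 (0.103). The 8 arrays share 4 mice, and the likeness is a description of these samples.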

How the data were processed

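Values for 28874 probes on 8 arrays were used on the log2 scale in which the authors deposited them. That scale was read from the values, which ran from 1.918 to 14.49, and array medians of 4.888 to 5.006 were taken to mean that the arrays had been normalized. The submitters' processing notes name MAS5 without a role, and background correction, summarization and normalization have no description in the sources used here. Gene names came from the platform annotation, in which 21789 probes had 1 symbol, 1621 several and 5464 no entry. Each gene took its probe with the highest mean, and the 40% of genes with the lowest mean (below 4.597) were left out.

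Tumor and adjacent samples were compared over 11963 genes with limma 3.58.1 in R 4.3.3 (lmFit, eBayes with a trend, mouse as a block, Benjamini-Hochberg, threshold 0.05, two-sided), which left 3 residual degrees of freedom. The pairing follows the design text, and deviations correlated within M24, M48, M50 and M60 at 0.313, 0.421, 0.0986 and 0.111. Between different mice the correlations ran from -0.378 to 0.189, so those within M50 and M60 did not exceed all of them. The members, the 15 further gene lists and the tests were chosen with earlier results of these data known. Genes named are the 9 factors, the related factors, up to 6 genes of each other list with the smallest p, the defining cell type markers and the nearest profiles. Other list genes were named after their values were seen.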

Additional observations from a re-analysis of the deposited data

Results flagged for a closer look

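Dixon's criterion was applied to the tumor values, the adjacent values and the paired differences of each of the 9 factors, in groups of 4. In 2 of these groups 1 sample stood apart, and the criterion flags about 1 in 20 groups by chance. Hnf4a was at 11.06 in the tumor of M60, against 10.86 to 10.89 in the other tumors. Foxa2 was at 6.37 in the tumor of M48, against 6.91 to 6.98 in the other tumors, and the adjacent liver of M48 was also the lowest of its group, at 6.49.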

How the results depend on the processing

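With no replicate block, 6 factors were still called lower and 1 higher, and 1743 genes in all were called higher and 1799 lower. Foxa3, Cebpa and Onecut2 were called in the same direction under each of the 11 alternatives, and Foxa1 and Foxa2 passed under none. The block, the filter on low values, quantile normalization, median centring and the variance trend changed no call of the 9 factors. Averaging probes could not change their values, since each had 1 probe. Leaving out 1 mouse changed calls. Over the 4 such fits the factors called lower numbered 2 to 4, the genes called higher 1238 to 1759 and the genes called lower 1071 to 1720. The difference of Hnf4a ranged from -0.39 to -0.29, of Cebpb from -0.67 to -0.43, of Onecut1 from -0.67 to -0.38 and of Prox1 from -0.50 to -0.35. A fit on 3 mice has fewer samples and so less power. For the other lists and genes, alternatives were added after seeing the data: of 1235 gene values tested in both fits, 1142 stayed on the same side of the threshold, 80 lost the call and 13 gained it, with no sign turned among the calls. Of 330 list counts 240 were equal, 58 differed within 1.5 times and 32 moved further or to or from 0. Detection calls and scan dates were not analysed here.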
